A study of Mus musculus with 8 samples.

Results

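The interferon-responsive genes are 9 genes, Ifi27, Ifitm2, Ifitm3, Bst2, Isg15, Irf9, Ifit3, Oasl2 and Rtp4, chosen by name as genes that interferon is known to induce. All 9 were found by Ensembl identifier among the 22430 rows of a gene count table of the mouse brain. Each of 8 libraries was made from 1 male mouse of the inbred strain C57Bl/6JRj, with 4 young adult mice aged 6 months (6m) and 4 aged mice of 24 months (24m). The labels name no transgene or treatment, and the groups were compared for age alone. RNA of a whole brain hemisphere was sequenced on an Oxford Nanopore (ONT) device, and the methods describe direct RNA sequencing, whereas the sample labels describe a poly(A) library kit. The values are raw read counts per gene, and the libraries held 573152 to 1255424 counts each.

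Interferons are signalling proteins that cells release on sensing viral or misplaced nucleic acids. Type I interferons bind the receptor pair Ifnar1 and Ifnar2, whose kinases phosphorylate transcription factors of the STAT family, and these join Irf9 in a complex that binds interferon-stimulated response elements in the promoters of induced genes. In the brain, microglia, astrocytes, endothelial cells and neurons can all respond, and the induced proteins restrict viruses at entry, replication, translation or release.

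The core of the response element, GAAANNGAAA, was searched on both strands from 250 bases before to 50 bases after the start of each canonical transcript, and overlapping matches were counted separately. It was present in 5 of the 9 genes, compared with 3.84% of 21770 protein-coding promoters of the same length. Among 59 other interferon-induced genes, 26 held a match (44.1%). Ifi27 had 1 match, Bst2 had 2 that overlap, Isg15 had 3 that overlap, Ifit3 had 2 on the opposite strand and Rtp4 had 4. No match stood in these windows of Ifitm2, Ifitm3, Irf9 or Oasl2. The sites are shown because they are a sequence feature that part of the group shares and that the choice of genes did not use. Each stretch is 30 bases of GRCm39, read 5′ to 3′ on the strand of its gene, with the matches in capitals. They lie at chr12:103400382-103400411 (plus strand) for Ifi27, at chr8:71990224-71990253 (minus strand) for Bst2, at chr4:156285328-156285357 (minus strand) for Isg15, at chr19:34560763-34560792 and chr19:34560797-34560826 (plus strand) for Ifit3, and at chr16:23428585-23428614 and chr16:23428614-23428643 (plus strand) for Rtp4.
Ifi27: gagagctgggGAAATAGAAAcctatcttat
Bst2: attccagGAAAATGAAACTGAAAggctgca
Isg15: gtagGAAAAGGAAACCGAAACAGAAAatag
Ifit3, distal: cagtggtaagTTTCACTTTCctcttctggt
Ifit3, proximal: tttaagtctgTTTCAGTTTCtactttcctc
Rtp4, distal: gtgcaccttgGAAACCGAAActtaaagaca
Rtp4, proximal: agaccggGAAATGGAAACTGAAAgaaccgg
The sites of Bst2, Isg15 and Ifit3 lie outside annotated genes, and those of Rtp4 lie within the gene but in no exon. The site of Ifi27 falls in exons of other annotated transcripts, both of Ifi27 and of its neighbour Ifi27l2a on the opposite strand. The remaining match of Rtp4 spans the start of the transcript and is not shown.

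**Figure D1:**
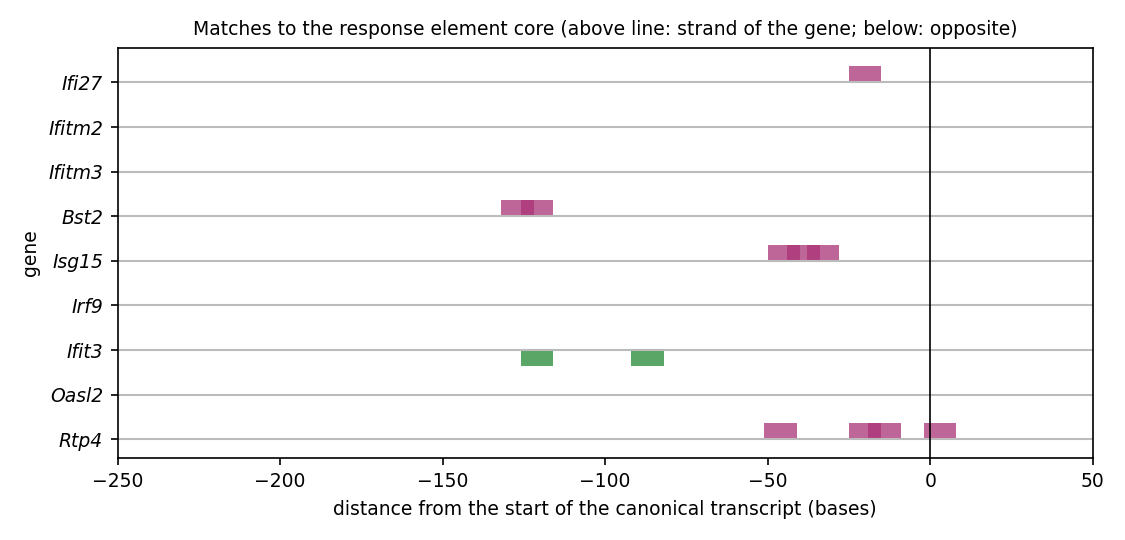
Matches to the response element core in the promoters of the 9 genes, by distance in bases from the start of the canonical transcript on the x axis, with 1 line per gene. Boxes above a line are matches on the strand of the gene and boxes below it are matches on the opposite strand, and the 12 matches fall in 5 genes, from base -132 of Bst2 to base 8 of Rtp4.

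The 9 genes together held 1552 of 6636672 counts (0.0234%), between 112 and 324 counts in a library. This sets the precision of what follows. Of the 9 genes, 7 had a mean count over 5 across the 8 libraries and entered a quasi-likelihood test of age in edgeR, together with 9375 genes in all. Oasl2 and Rtp4 stayed under that minimum. A count of 3 or fewer was taken as the count limit, which corresponded to 2.30 to 5.42 CPM (counts scaled to library size) depending on the library. Oasl2 was at this limit in all 4 young adult libraries and in 2 aged ones, Rtp4 in 3 young adult libraries and 1 aged one, Irf9 in 1 young adult library and Isg15 in 1 aged library.

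None of the 7 tested genes was called changed, for which the adjusted p had to be 0.05 or less and the log2 fold change (log2FC) 0.58 or more in either direction. Over all tested genes, 10.3% were called higher and 4.17% lower in the aged libraries. Before adjustment, 4 of the 7 genes (Ifi27, Ifitm3, Bst2 and Ifit3) had a p under 0.05 with a higher level in the aged libraries, compared with 18.3% of all tested genes. DESeq2 called none of the 7 and gave 2 of them, Ifi27 and Ifitm3, an unadjusted p under 0.05. The log2FC was positive in 6 genes and negative in 1, with a median of 0.51, beside -0.003 over all tested genes. This median is the value of Irf9, which passed the minimum only through its aged libraries. The median and the count of signs therefore lend no support to a rise of the group.

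Ifi27 (ENSMUSG00000064215, chr12:103392254-103407799, plus strand) encodes a small hydrophobic membrane protein. The young adult libraries held 80, 58, 73 and 63 counts of it and the aged libraries 75, 117, 85 and 162. Scaled to CPM, the young adult values were 98.5, 105, 90.9 and 79.1, and the aged values 114, 122, 109 and 124. Every aged library lay above every young adult one, a pattern without overlap that 2 of the 7 tested genes showed, compared with 11.1% of all tested genes. The mean was 93.3 ± 11.1 CPM in young adult and 117 ± 7.04 CPM in aged mice (SD, n = 4 each). The log2FC of 0.34 (SE 0.137, 95% interval 0.06 to 0.62) missed both thresholds, with an adjusted p of 0.0735. Ifi27 carried 45.9% of all counts of the 9 genes. It shares 163 exon bases with Ifi27l2a on the opposite strand, and the strand setting of the counting is not given in the sources used here, so that reads from this stretch cannot be assigned to one of the genes with certainty.

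Ifitm2 and Ifitm3 lie close together on chromosome 7 and encode membrane proteins that hinder the entry of viruses from endosomes. Ifitm3 (ENSMUSG00000025492, chr7:140589499-140591282, minus strand) had 35, 15, 22 and 23 counts in the young adult libraries and 58, 47, 27 and 46 in the aged ones. The corresponding levels were 43.1, 27.1, 27.4 and 28.9 CPM against 88.4, 48.9, 34.6 and 35.3 CPM. Aged replicate 1 stood far above the rest, young adult replicate 1 lay above 2 aged libraries, and the ages overlapped. The log2FC was 0.62 (SE 0.254, 95% interval 0.10 to 1.15, adjusted p = 0.081, edgeR). The size of this value, though not its sign, depended on which library was left out. It was 0.31 (adjusted p = 0.318, edgeR) without aged replicate 1. It passed both thresholds without young adult replicate 1 (0.83, adjusted p = 0.0487) or without aged replicate 4 (0.81, adjusted p = 0.0251). The gene has an annotated antisense transcript over 780 exon bases, which has no row in the table.

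Ifitm2 (ENSMUSG00000060591, chr7:140534738-140536228, minus strand) had 20, 13, 23 and 24 counts in the young adult libraries and 24, 21, 18 and 29 in the aged ones. Its level was 26.7 ± 3.17 CPM in young adults and 25.9 ± 7.12 CPM in aged mice (SD, n = 4 each). Aged replicate 1, at 36.6 CPM, was the highest of all 8 libraries and the other 3 aged libraries, at 21.8 to 23.0 CPM, were the lowest. The log2FC was -0.10 (SE 0.235, 95% interval -0.58 to 0.38, adjusted p = 0.808), and it was -0.26 without aged replicate 1 and 0.01 when library sizes alone were used for scaling. Ifitm2 shares 268 exon bases on the same strand with the gene model Gm45717, whose counts of 13, 10, 16 and 17 in young adult and 22, 21, 15 and 26 in aged libraries were equal to or below those of Ifitm2 in every library, so both values are uncertain.

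Bst2 (ENSMUSG00000046718, chr8:71986895-71990114, minus strand), or tetherin, is a membrane protein that holds budding virus particles on the cell surface. The counts were 21, 12, 6 and 12 in young adult libraries and 31, 22, 16 and 33 in aged libraries, which gave 25.8, 21.7, 7.47 and 15.1 CPM against 47.3, 22.9, 20.5 and 25.3 CPM. Aged replicate 1 was again the highest and young adult replicate 3 the lowest, while young adult replicate 1 lay above 3 aged libraries. The log2FC of 0.69 (SE 0.315, 95% interval 0.04 to 1.34) had an adjusted p of 0.12. Leaving out aged replicate 1 or young adult replicate 3 reduced it to 0.43 in both cases, and leaving out young adult replicate 1 raised it to 0.99 (adjusted p = 0.0601).

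Isg15 (ENSMUSG00000035692, chr4:156283883-156285303, minus strand) encodes a ubiquitin-like protein that is joined to other proteins during the interferon response. Young adult libraries held 9, 4, 5 and 4 counts and aged libraries 7, 8, 2 and 13. Levels of 7.39 ± 2.62 CPM and 7.88 ± 3.68 CPM (SD, n = 4 each) overlapped over most of their range, with aged replicate 3 the lowest of all. The log2FC was 0.11 with a 95% interval from -0.76 to 0.99 (adjusted p = 0.884), a range that includes a change of the size of Ifit3 in either direction. A pseudogene, Gm9706, matches 61.6% of the transcript at 95.23% identity and has no row in the table.

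Irf9 (ENSMUSG00000002325, chr14:55841028-55847812, plus strand) is the DNA-binding subunit of the factor that interferon activates. It had 3, 4, 5 and 8 counts in young adult libraries and 6, 10, 6 and 14 in aged ones, or 6.80 ± 2.63 CPM and 9.49 ± 1.39 CPM (SD, n = 4 each). Young adult replicate 4 lay among the aged libraries. With a mean of 5 counts in young adult libraries, Irf9 passed the minimum through the aged ones. The log2FC of 0.51 (SE 0.393, 95% interval -0.30 to 1.31) had an adjusted p of 0.386. It was 0.30 without young adult replicate 1 and 0.79 without young adult replicate 4. Irf9 shares 282 exon bases on the same strand with Rnf31, which lies just upstream and whose log2FC was -0.22.

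Ifit3 (ENSMUSG00000074896, chr19:34560899-34566443, plus strand), a tetratricopeptide repeat protein that acts with Ifit1 on viral RNA, had 7, 5, 10 and 8 counts in young adult libraries and 13, 16, 16 and 17 in aged ones. Its levels were 8.62, 9.04, 12.4 and 10.05 CPM against 19.8, 16.6, 20.5 and 13.04 CPM. As for Ifi27, the ages did not overlap. Ifit3 had the highest log2FC of the 7 genes at 0.74 (SE 0.322, 95% interval 0.08 to 1.40, adjusted p = 0.101). Its near-identical relative Ifit3b (97.24% identity over 97.2% of the transcript) lies close by on the same chromosome. Ifit3b held 3, 1, 2 and 1 counts in young adult and 3, 6, 4 and 9 in aged libraries. Reads could be split between the pair in a way the counting does not show.

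Oasl2 and Rtp4 were too rare for the test. Oasl2 (ENSMUSG00000029561, chr5:115034997-115050295, plus strand), a relative of the oligoadenylate synthetases that respond to double-stranded RNA, had 0, 0, 1 and 0 counts in young adult libraries and 2, 2, 6 and 4 in aged ones. All aged libraries thus held more than any young adult one, although 2 of them were themselves at the count limit. Summed over libraries, 1 count stood against 14, a ratio of 11.2 with a counting interval of 1.71 to 474 (exact, 95%) that covers counting error only and no difference between mice. When all genes with at least 1 count were fitted with edgeR, its adjusted p was 0.0324, and with a minimum total count over 5 it was 0.0374. Oasl2 passed that minimum through its aged libraries alone, so these values lend it no support. With young adult libraries at the limit, the fitted fold change is not given.

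Rtp4 (ENSMUSG00000033355, chr16:23337811-23432972, plus strand), a receptor chaperone that interferon induces and that binds RNA, had 4, 1, 1 and 2 counts in young adult libraries and 6, 1, 5 and 6 in aged ones. Aged replicate 2 held no more than the lowest young adult libraries. The summed counts of 8 and 18 gave a ratio of 1.80 with a counting interval of 0.75 to 4.79, and the adjusted p in the fit of all genes was 0.453. Rtp4 shares 1129 exon bases on the same strand with the gene model Gm45338, which has no row in the table.

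**Figure D2:**
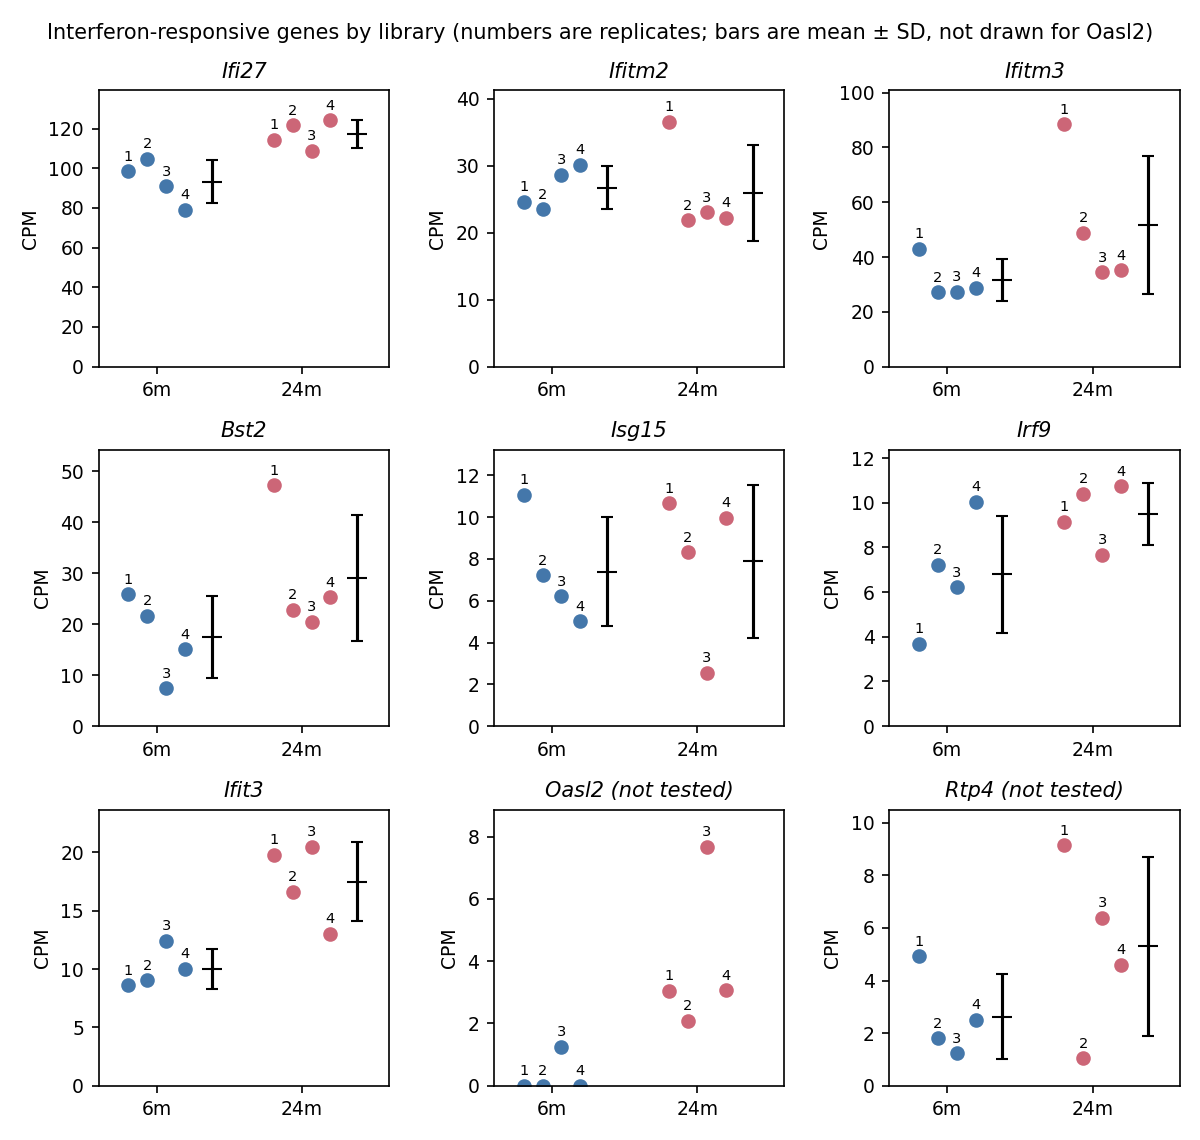
Level of each of the 9 genes in CPM on the y axis, by age on the x axis, with 1 numbered point per library (n = 4 per age) and the mean and SD as bars, which are not drawn for Oasl2. Ifi27, Ifit3 and Oasl2 do not overlap between the ages, and aged replicate 1 stands highest for Ifitm2, Ifitm3, Bst2 and Rtp4.

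Divided by the length of the canonical transcript, the mean level over the 8 libraries ran from 43.8 CPM per kb for Ifi27, 32.7 CPM per kb for Ifitm3, 28.8 CPM per kb for Bst2 and 26.6 CPM per kb for Ifitm2 down to 2.48 CPM per kb for Rtp4 and 0.685 CPM per kb for Oasl2. On this scale Isg15 (9.76 CPM per kb), Ifit3 (6.59 CPM per kb) and Irf9 (2.93 CPM per kb) fell in between. Long reads need not scale with length as fragments do, so the order is a description.

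Added up, the 9 genes reached 220, 203, 182 and 181 CPM in the young adult libraries and 338, 254, 232 and 249 CPM in the aged ones. The ages did not overlap in this sum, whose mean was 1.37 times higher in aged mice, and 1.46 times higher without Ifi27. Without Ifi27 the ages nearly met, at up to 121.9 CPM in young adult libraries and from 122.8 CPM in aged ones. Aged replicate 1 stood at 224 CPM there. Aged replicate 1 was the highest aged library for 5 of the 9 genes, and without it the ratio of the means for all 9 genes was 1.25. The sum was given no test.

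The other genes of the interferon pathway were taken from lists of ligands, receptors, signalling proteins, regulators and further induced genes, 114 genes in all. Of these, 14 had no count, 66 had counts but did not pass the minimum, and 34 were tested. In this test 6 were called higher and 1 lower, beside 10.3% and 4.17% of all tested genes. The median log2FC of the 34 was 0.13. Of the 6, Cmpk2, Ifi27l2a and Stat3 passed the minimum only through the aged libraries, as did some genes that were not called. Neither the calls of these 3 genes nor the median therefore lend support to a rise of the pathway. The low number of tested genes limits what the lists can show.

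The 9 interferon genes on the ligand list had 0 counts in all 8 libraries, which allows up to 2.30 to 5.42 CPM in a library and so does not show that they were absent. None of the 5 tested receptor genes was called. Ifnar2, a chain of the type I receptor, had a log2FC of 0.49 (adjusted p = 0.23), and Ifngr1 and Ifngr2, the chains of the interferon gamma receptor, had 0.18 (adjusted p = 0.704) and 0.60 (adjusted p = 0.0544).

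Among 4 tested genes of JAK-STAT signalling, Stat3, a transcription factor shared by many cytokines including those of the interleukin-6 family, rose. It had 4, 4, 6 and 6 counts in young adult and 12, 21, 12 and 20 in aged libraries, which did not overlap in CPM (log2FC 1.37, SE 0.347, adjusted p = 0.00638). DESeq2 on quantile-normalized counts did not call it. Jak1, a kinase of the receptor, was at 35.3 CPM and 35.0 CPM (log2FC 0.02, 95% interval -0.39 to 0.42).

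None of the 3 tested interferon regulatory factors was called. Irf3, which switches on interferon genes after viral sensing, had a log2FC of -0.69 (adjusted p = 0.0516), Irf2 one of -0.13 and Irf5 one of -0.05. The 2 tested sensor and adaptor genes, Tbk1 (the kinase that activates Irf3) and Ticam1 (an adaptor of Toll-like receptor signalling), had values of -0.45 and -0.08, and Ube2l6, the conjugating enzyme for Isg15, had -0.10. No call was made among these either. A further 13 sensor and adaptor genes, 3 regulatory factors and 4 genes of Isg15 conjugation had counts but were not tested. Their levels went in both directions, so the values above do not describe these lists as a whole.

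Of 5 tested genes listed as negative regulators, Ptpn11, a phosphatase that acts in many receptor pathways, fell. Its counts were 12, 11, 20 and 20 in young adult and 4, 14, 7 and 8 in aged libraries, with no overlap in CPM (log2FC -1.23, SE 0.337, adjusted p = 0.0107). Without aged replicate 4 it was not called. Irf2bp1 and Irf2bpl, which encode partners of Irf2, had log2FC values of -0.30 (adjusted p = 0.177) and 0.45 (adjusted p = 0.0593).

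The remaining calls lay among the 14 tested genes of 59 further interferon-induced genes. Of these 14, 5 were called higher and none lower, beside 10.3% and 4.17% of all tested genes. Their median log2FC was 0.46. It includes genes, called or not, that passed the minimum only through the aged libraries, so it lends no support to a rise of the list. Lgals3bp, a secreted galectin-binding glycoprotein, had 22, 12, 20 and 23 counts in young adult libraries and 63, 69, 45 and 77 in aged ones (log2FC 1.42, SE 0.197, adjusted p = 1.3e-05). Ifi27l2a, a relative of Ifi27 and its neighbour, had 5, 1, 9 and 5 counts against 13, 22, 17 and 20 (log2FC 1.53, SE 0.369, adjusted p = 0.00426). Neither gene overlapped between the ages in CPM, and both were called under all 18 alternatives of scaling, filter, test, threshold and libraries.

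Shisa5, a membrane protein of the endoplasmic reticulum, rose by a log2FC of 0.64 (adjusted p = 0.0136), and was not called without aged replicate 2. Adar, which edits adenosine to inosine in double-stranded RNA, rose by 0.65 (adjusted p = 0.036), and 8 of the 18 alternatives did not call it. Cmpk2, a mitochondrial nucleotide kinase, had 1, 2, 1 and 5 counts in young adult libraries and 2, 9, 10 and 19 in aged ones (log2FC 1.75, SE 0.525, adjusted p = 0.0185), and 6 alternatives did not call it. Cmpk2, Ifi27l2a and Stat3 had a mean of 5 counts or fewer in the young adult libraries and passed the minimum through the aged ones, so that they could be tested only because they were higher there. Ifitm10, at 95.1 CPM and 91.5 CPM, had a log2FC of -0.07 (adjusted p = 0.782). None of the 7 pathway genes called changed held a match to GAAANNGAAA in its promoter window.

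**Figure D3:**
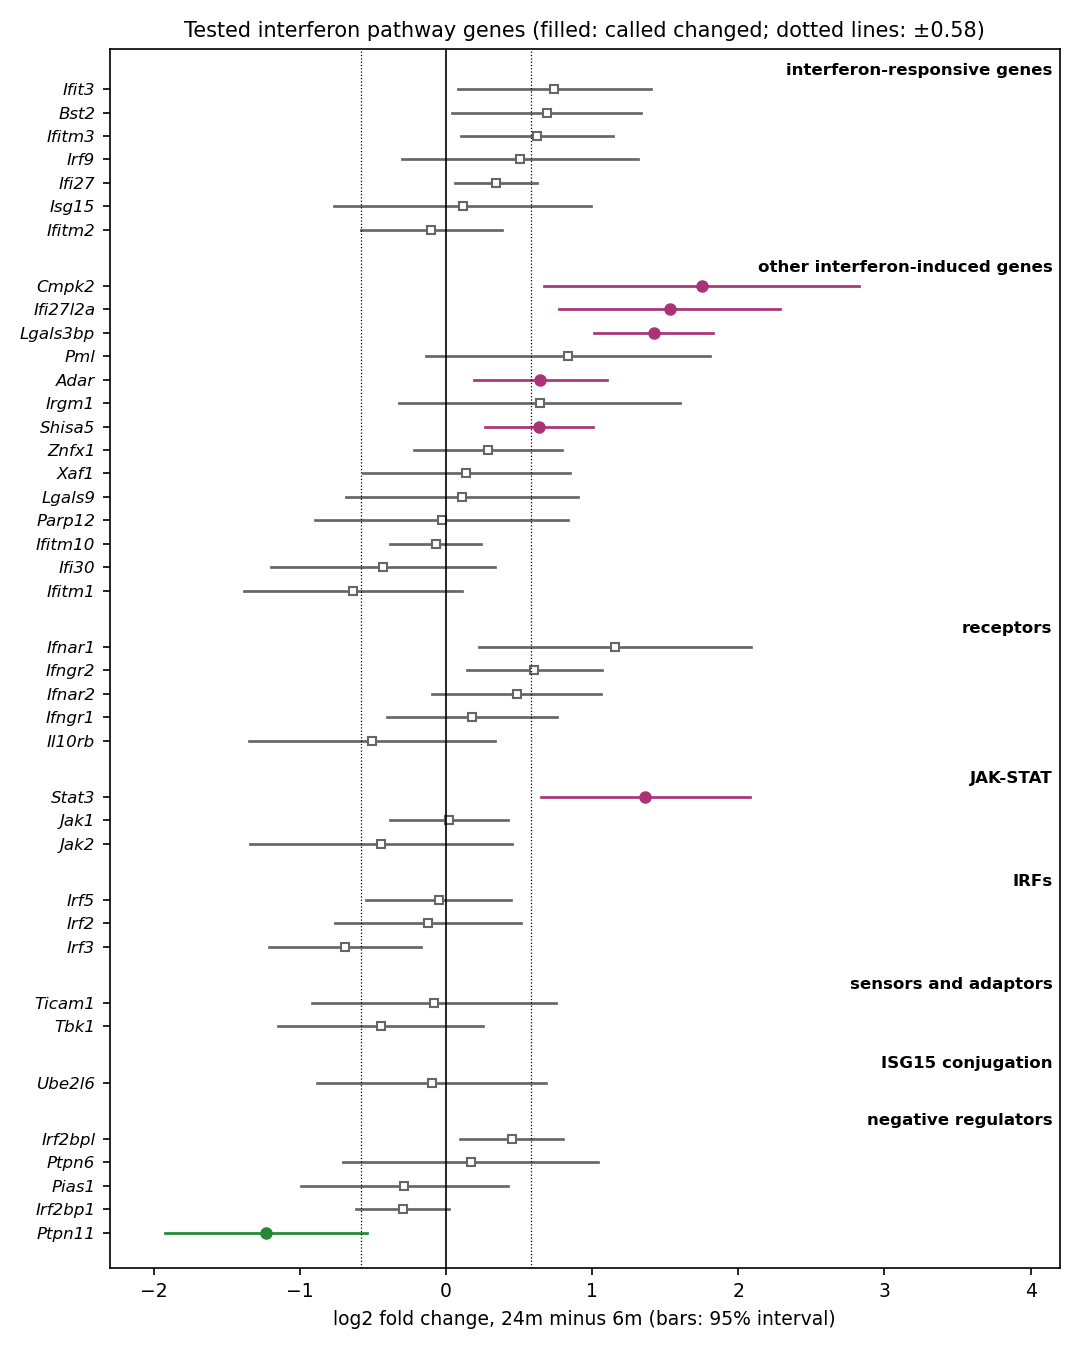
log2FC of aged minus young adult libraries on the x axis for the 7 tested interferon-responsive genes and 33 other tested pathway genes, 1 row per gene, with 95% intervals as bars. Filled circles are the 6 genes called higher and the 1 called lower, and the intervals of Ifi27, Ifitm3, Bst2 and Ifit3 lie above 0 although none of them was called.

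In bulk tissue, more cells of a type and more RNA per cell cannot be told apart, so levels of marker genes of the cells a hemisphere can hold are given beside the sums. The 12 microglial genes added up to 876 to 931 CPM in young adult and 1087 to 1370 CPM in aged libraries, without overlap and with aged replicate 1 the highest, and 3 of 10 tested genes (Tmem119, Ctss and Tyrobp) were called higher. Their ratio of means was 1.34, beside 1.37 for the interferon-responsive genes, 1.70 for the astrocyte list, 1.46 for the oligodendrocyte list and 1.21 for the neuronal list, none of which overlapped between the ages. Aged replicate 1 was also the highest library for the oligodendrocyte list. The 6 astrocyte genes ranged from 261 to 339 CPM in young adult and 435 to 557 CPM in aged libraries, with 3 called higher and 1 lower among 5 tested. Gfap alone rose from a mean of 61.5 CPM to 237 CPM, where the list had means of 292 CPM and 496 CPM. Slc1a3 and Gja1 were also called higher. Slc1a2 was called lower and Aldh1l1 was lower without overlap, so the list did not move as one. The part of these cells in the levels of the interferon-responsive genes was not tested.

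Endothelial markers summed to 145 to 209 CPM in young adult and 134 to 170 CPM in aged libraries. Mural cell markers summed to 129 to 208 CPM and 111 to 147 CPM, and both lists overlapped. No call was made among the 4 endothelial and 2 mural genes tested. Ly6c1 of the endothelial list was lower without overlap (log2FC -0.578, adjusted p = 0.015, edgeR) and missed only the log2FC minimum. The 2 mural genes were lower with an unadjusted p under 0.05. Markers of border macrophages were at 3.84 to 13.7 CPM over all libraries and those of T cells at 1.24 to 9.15 CPM, with Cd3e and Cd8a at 0 counts in every library. As a check of the labelled tissue, all 6 neuronal and all 6 oligodendrocyte genes had counts enough to be tested, with 3 and 2 called higher. Neuronal markers ran from 1923 to 2101 CPM in young adult and 2238 to 2572 CPM in aged libraries. Tubb3, the neuronal gene with the highest mean level, went the other way (log2FC -0.30, adjusted p = 0.0353, edgeR). Oligodendrocyte markers ran from 1870 to 2437 CPM in young adult and 2556 to 3448 CPM in aged libraries. The 5 genes of red blood cells were all called lower, at 6090 to 10032 CPM in young adult and 3350 to 6283 CPM in aged libraries. Markers of meningeal fibroblasts (29.1 to 45.2 CPM) and of choroid plexus epithelium (2182 to 4344 CPM) overlapped between the ages, with no call among 2 tested genes of each list.

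**Figure D4:**
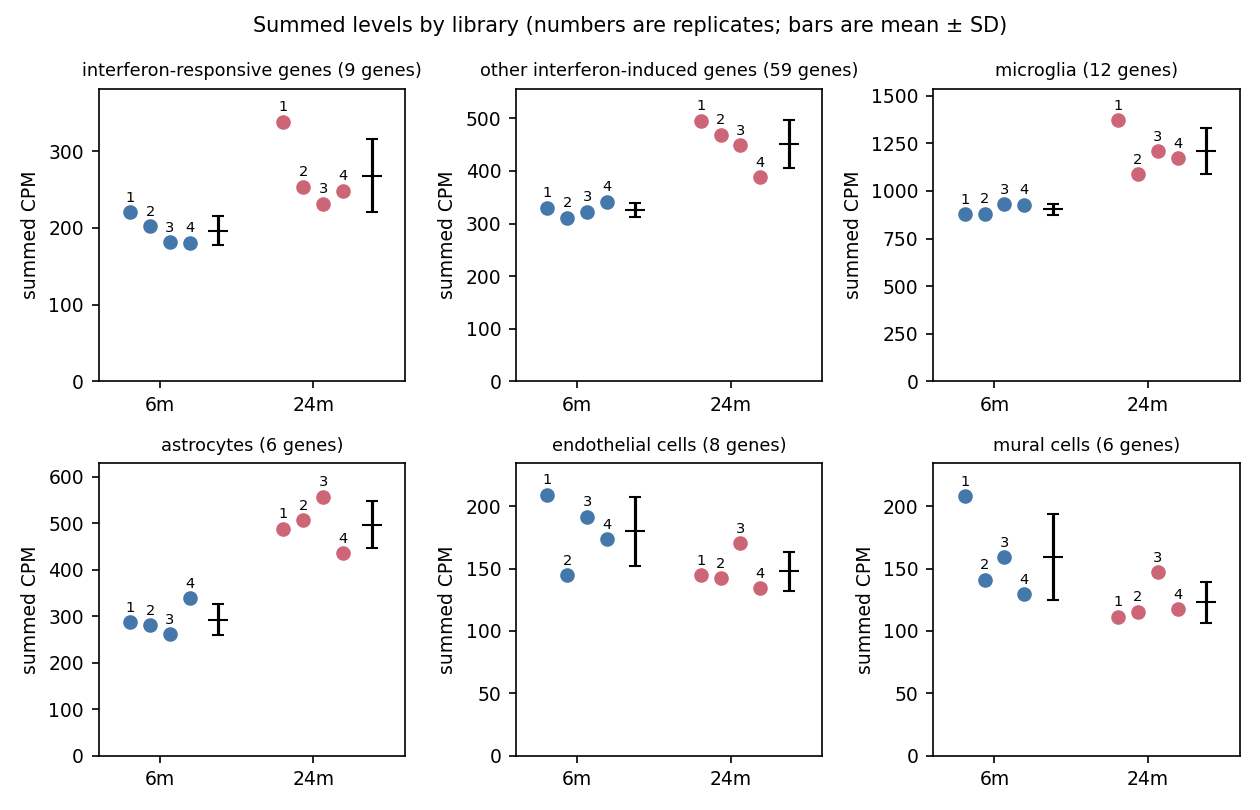
Summed CPM on the y axis by age on the x axis for the 9 interferon-responsive genes, the 59 other interferon-induced genes and 4 marker lists, with 1 numbered point per library and the mean and SD as bars (n = 4 per age). The 2 interferon lists, the microglial list and the astrocyte list do not overlap between the ages, while the endothelial and mural lists do.

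Across 18 settings, the reported one included, the sign of log2FC was kept for Ifi27, Ifitm3, Bst2 and Ifit3, and for Irf9 wherever it was tested. Ifi27 stayed between 0.28 and 0.45, under the minimum of 0.58 in every setting, although its adjusted p came to 0.0194 with library sizes alone, 0.0397 with edgeR's filterByExpr and 0.0385 without aged replicate 1. Ifit3 stayed between 0.66 and 0.90 with adjusted p from 0.0606 to 0.302. Isg15 changed sign in 3 settings and Ifitm2 in 1.

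**Figure D5:**
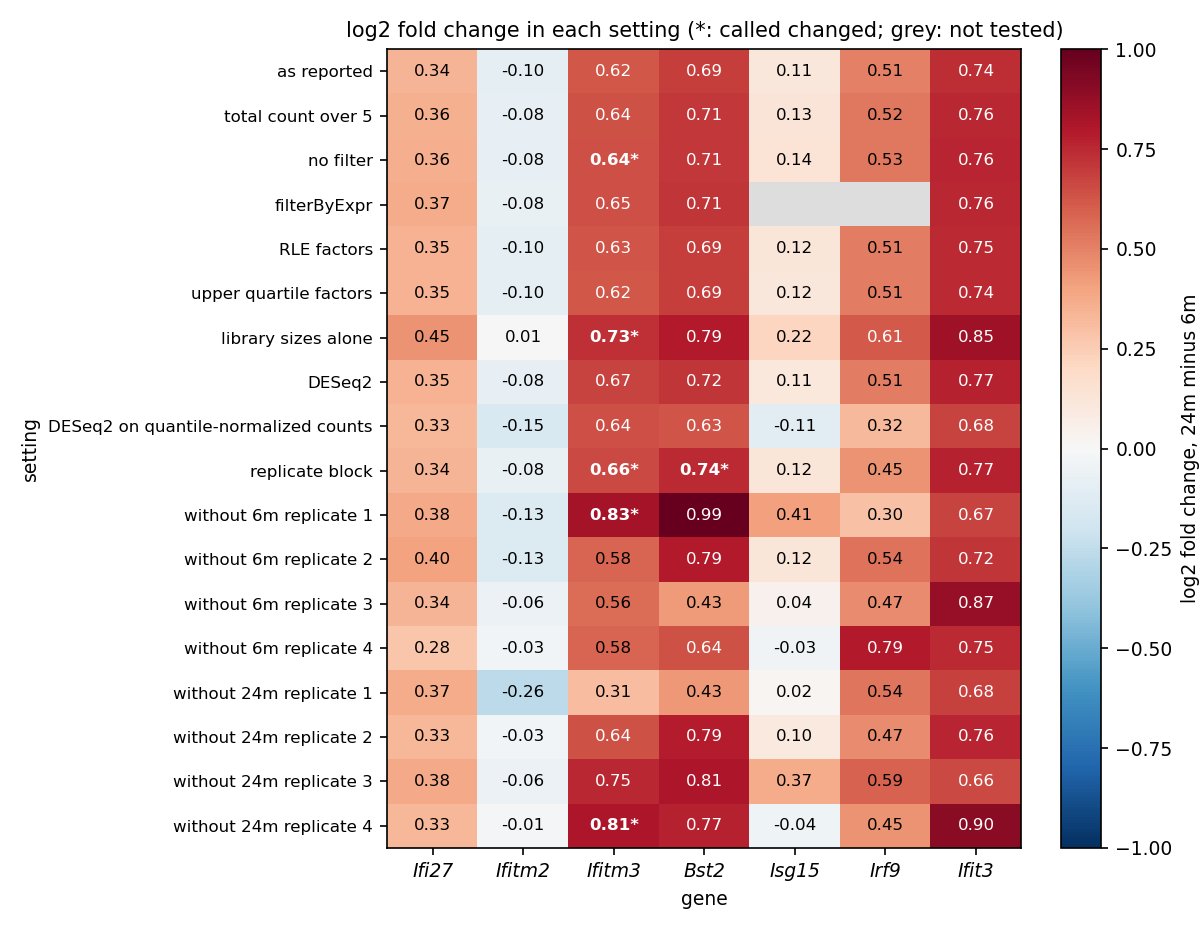
log2FC of aged minus young adult libraries as colour and number for the 7 tested genes (columns) in each setting (rows), with an asterisk where a gene was called changed and grey where it was not tested. Ifitm3 was called in 5 settings, Bst2 in 1 and the others in none, and the column of Isg15 holds both signs.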

How the data were processed

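The authors mapped ONT reads of 8 libraries to GRCm39 with minimap2 2.24 (version per the labels) and counted them per gene with featureCounts, and the deposited values are raw counts. The strand, overlap and multi-mapping settings are not given in the sources used here. Their later filter and normalization are not part of these counts.

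Gene positions came from GENCODE vM39 (22281 of 22430 identifiers matched). In R 4.3.3, edgeR 4.0.16 (quasi-likelihood, TMM, age as the only term) tested the 9375 genes whose mean count exceeded 5, with Benjamini-Hochberg adjustment over them. A call needed an adjusted p no higher than 0.05 and a log2FC of 0.58 or more in either direction, the cut-offs of the study's methods. DESeq2 1.42.0 was an alternative. The tests were checked on simulated counts. CPM are TMM-scaled. Pairs of libraries differed by 1.18 to 1.84 times their sampling noise among young adults (chi-square per degree of freedom). The range was 1.30 to 4.07 among aged libraries and 3.26 to 5.07 between the ages. No library therefore repeated the counts of another. That each came from its own mouse rests on the methods, since these values cannot show it. No batch is labelled, and p-values measure the spread between mice.

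The genes, lists and tests were chosen with earlier results of these data known. Named are the 9 genes, every pathway gene called, up to 3 tested genes per pathway list with the highest mean CPM, and the marker lists. A gene that this rule selects is not reported here. Genes named for shared exons or near-identical copies (at least 95% identity over at least 50% of the transcript) were added afterwards.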

Additional observations from a re-analysis of the deposited data

Results flagged for a closer look

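In 22 groups of 4 libraries examined with Dixon's test, 4 held a library whose gap to its neighbour, as a share of the range, exceeded the critical value, where chance gives about 1 in 20 groups, or 1.1 here. Ifitm2 in aged replicate 1 stood at 36.58 CPM, with a gap of 0.919 of the range. Ifitm3 in young adult replicate 1 stood at 43.08 CPM, with a gap of 0.89 of the range. Oasl2 in young adult replicate 3 was at 1.245 CPM, which is 1 count beside 3 libraries with 0. The total of young adult replicate 2, 573152 counts, was the lowest, with a gap of 0.908 of the range. What sets these libraries apart was not tested.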

How the results depend on the processing

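Of the 9 genes, the number called higher went from 0 to 1 with a total count over 5 (Oasl2, which passed that minimum through its aged libraries alone), to 2 without a filter (Ifitm3 and Oasl2), to 1 with library sizes alone (Ifitm3), to 2 with the replicate block (Bst2 and Ifitm3), and ranged from 0 to 1 when a library was left out (Ifitm3, without young adult replicate 1 or aged replicate 4). It stayed at 0 in the other settings, and no setting called a gene lower. Under the replicate block, Ifitm3 had a log2FC of 0.66 (adjusted p = 0.0194) and Bst2 of 0.74 (adjusted p = 0.0494). The labels do not say whether a replicate number marks a pair or a batch. Same-numbered libraries correlated between -0.16 and 0.0647 in their deviations from the age means, over all tested genes. Differently numbered libraries correlated between -0.095 and 0.113. At these counts sampling noise keeps such correlations low, so they cannot exclude a pairing. Of the pathway genes, 3 in place of 6 were called higher by DESeq2 on quantile-normalized counts and 4 by DESeq2 on the raw counts. With library sizes alone 9 were called higher, and 4 to 7 when a library was left out. The number called lower was 2 in place of 1 without a filter and with the replicate block, and 0 to 2 when a library was left out: 0 without aged replicate 4 and 2 without young adult replicate 4 or aged replicate 1, with Irf3 as the second gene. The sign of Isg15 turned with DESeq2 on quantile-normalized counts (-0.11), without young adult replicate 4 (-0.032) and without aged replicate 4 (-0.045; leaving out 1 library gave -0.045 to 0.41), and that of Ifitm2 with library sizes alone (0.0056), a scaling that moved the median of all genes to 0.10. The causes were not tested. The summed level without Ifi27 gave 1.46 in place of 1.37. For the sum of all 9 genes, leaving out aged replicate 1, an alternative chosen after seeing the data, gave 1.25. Depth limits the rare genes most: Isg15, Irf9, Oasl2 and Rtp4 had mean counts of 6.5, 7, 1.88 and 3.25 per library.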
